A study of Mus musculus with 10 samples.

Results

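The genes encoding the proteasome were followed through mature mouse oocytes, which wait in metaphase II (MII) for fertilization, and through the pieces made by dividing them. A gene was taken as a member if its symbol in the platform annotation began with Psma to Psmg and a digit, and its value was that of the probe set listed with this gene alone that had the highest mean log2 intensity over all 10 arrays. The rule gave 49 of the 18193 genes with a probe set of their own, represented by 103 such probe sets. Of the 49, 47 encode proteasome proteins. The other two share only the start of their names, Psmc3ip, a meiotic recombination factor, and Psme3ip1, a protein that binds an activator of the proteasome. Psme2 was listed only on a probe set shared with another gene and has no value here.

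Proteasomes are the protease complexes that degrade ubiquitin-tagged proteins. A barrel-shaped core particle is built of outer rings of alpha subunits, which form the gate, and inner rings of beta subunits, some of which carry the proteolytic sites. A regulatory particle docks on the gate, and its base of ATPases unfolds the substrate while its lid removes ubiquitin. In oocytes the complex is known for destroying cyclin B and securin at anaphase, and after fertilization for the clearance of maternal proteins.

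All samples were B6D2F1 female mouse oocytes matured in vivo, collected 16 h after 5 IU of hCG, which had followed eCG by 48 h, and stripped of cumulus cells with hyaluronidase. The spindle-chromosome complex (SCC) is the spindle with its chromosomes drawn out of the oocyte by microsurgery (3 arrays, replicates 1 to 3). The cytoplast is what remains of that oocyte (4 arrays, replicates 1 to 4), and the third group is the intact MII oocyte (3 arrays, replicates 2 to 4). No gene was altered and no drug was compared. The labels call the arrays biological replicates but do not name the animals or pools behind them. The p-values therefore cover only the spread between the samples at hand, which may be technical in part. RNA was amplified and a fixed amount of labelled cRNA was hybridised. The intensities are therefore relative amounts, and the number of pieces collected and the RNA content of a piece cannot be told apart.

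Array medians ran from 15.6 to 16.6 in intensity. The 95th percentile of an array averaged 712 ± 86.5 (SD, n = 3) for the SCC and 574 ± 45.1 (SD, n = 4) for the cytoplast (two-sided exact permutation p = 0.0571, the smallest possible being 0.0286). The difference between the 3′ and 5′ control probe sets of Actb, a measure of RNA length, was 3.42 ± 0.202 log2 units (SD, n = 3) on SCC arrays and 4.62 ± 0.687 (SD, n = 4) on cytoplast arrays, again with a two-sided exact permutation p of 0.0571. For Gapdh it was 2.87 ± 0.480 and 3.17 ± 0.556 (two-sided exact permutation p = 0.429). All 11 measured oocyte markers were above background on every array. Of 14 cumulus and granulosa markers 12 were above background on no array and 0 on all. Their summed intensity was 478 to 581 in the SCC, 481 to 490 in the cytoplast and 455 to 518 in the MII oocyte. Among them, Kitl was above background on all 3 SCC arrays, at 113, 193 and 169. It measured 63.4 to 123 in the cytoplast and 67.7 to 133 in the MII oocyte (limma adjusted p = 0.156 between SCC and cytoplast). Foxl2 was above background on 2 MII oocyte arrays only. Of 9 immune markers 8 were above background on no array and 1, H2-Aa, on all, at 412 to 519 in the SCC, 376 to 1012 in the cytoplast and 285 to 863 in the MII oocyte.

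The background level of each array was set at the 95th percentile of 41 genes specific to other tissues, an intensity of 76.9 to 111.4. Of the 41, Vil1 lay above the level on all arrays, at 234 to 416, and 38 on none. By this measure 21 members were above background on all 10 arrays, 4 on some and 24 on none. The share of all genes above this level was not computed. The 21 included 6 of the 7 alpha-ring genes, Psmb2 and Psmb3 of the beta ring, the ATPases Psmc4 and Psmc6, and 7 of the other regulatory-particle and base-assembly genes. All 5 tissue-specific core genes were below background on every array. These are the testis subunit Psma8, the immunoproteasome subunits Psmb8, Psmb9 and Psmb10, and the thymus subunit Psmb11. Psmb8 lay between 7.01 and 9.04 and Psmb11 between 8.67 and 13.1, so neither passed the filter for testing. Psma8 lay between 11.1 and 17.6, Psmb9 between 14.5 and 24.1, and Psmb10 between 12.8 and 20.8. A probe set below background gives only an upper bound, since probe sets differ in how well they detect their transcript. The catalytic gene Psmb7, for example, lay between 6.41 and 9.04.

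Between the SCC and the cytoplast, the proteasome genes did not move as a block. Of the 43 members that passed the filter on low values, 5 were higher in the SCC and 0 were lower (limma, Benjamini-Hochberg adjusted p under 0.05 over all 23737 probe sets tested). The 5 were the alpha-ring genes Psma1, Psma2 and Psma5, the lid gene Psmd12 and the assembly chaperone Psmg3; Psmd12 was below background on all arrays, the other 4 above it on all. They are 11.6% of the members tested, against 6.74% of all probe sets called higher and 0.274% called lower. At an unadjusted p under 0.05 there were 11 members higher and 1 lower, beside 16.3% and 3.93% of all probe sets. In 10 members every SCC array was above every cytoplast array, and in 1, the lid gene Psmd3, every SCC array was below. Over all probe sets these shares were 13.9% and 5.89%. The median log2 difference of the 49 members was 0.032, beside 0.0024 over all genes, and 29 members were above 0 and 20 below. Among brightly measured probe sets (mean log2 above 8) the median was 0.28 over all 3944 and 0.032 over the 13 members. The share called higher was larger at this brightness, with 802 of the 3944 probe sets and 3 of the 13 members.

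**Figure D1:**
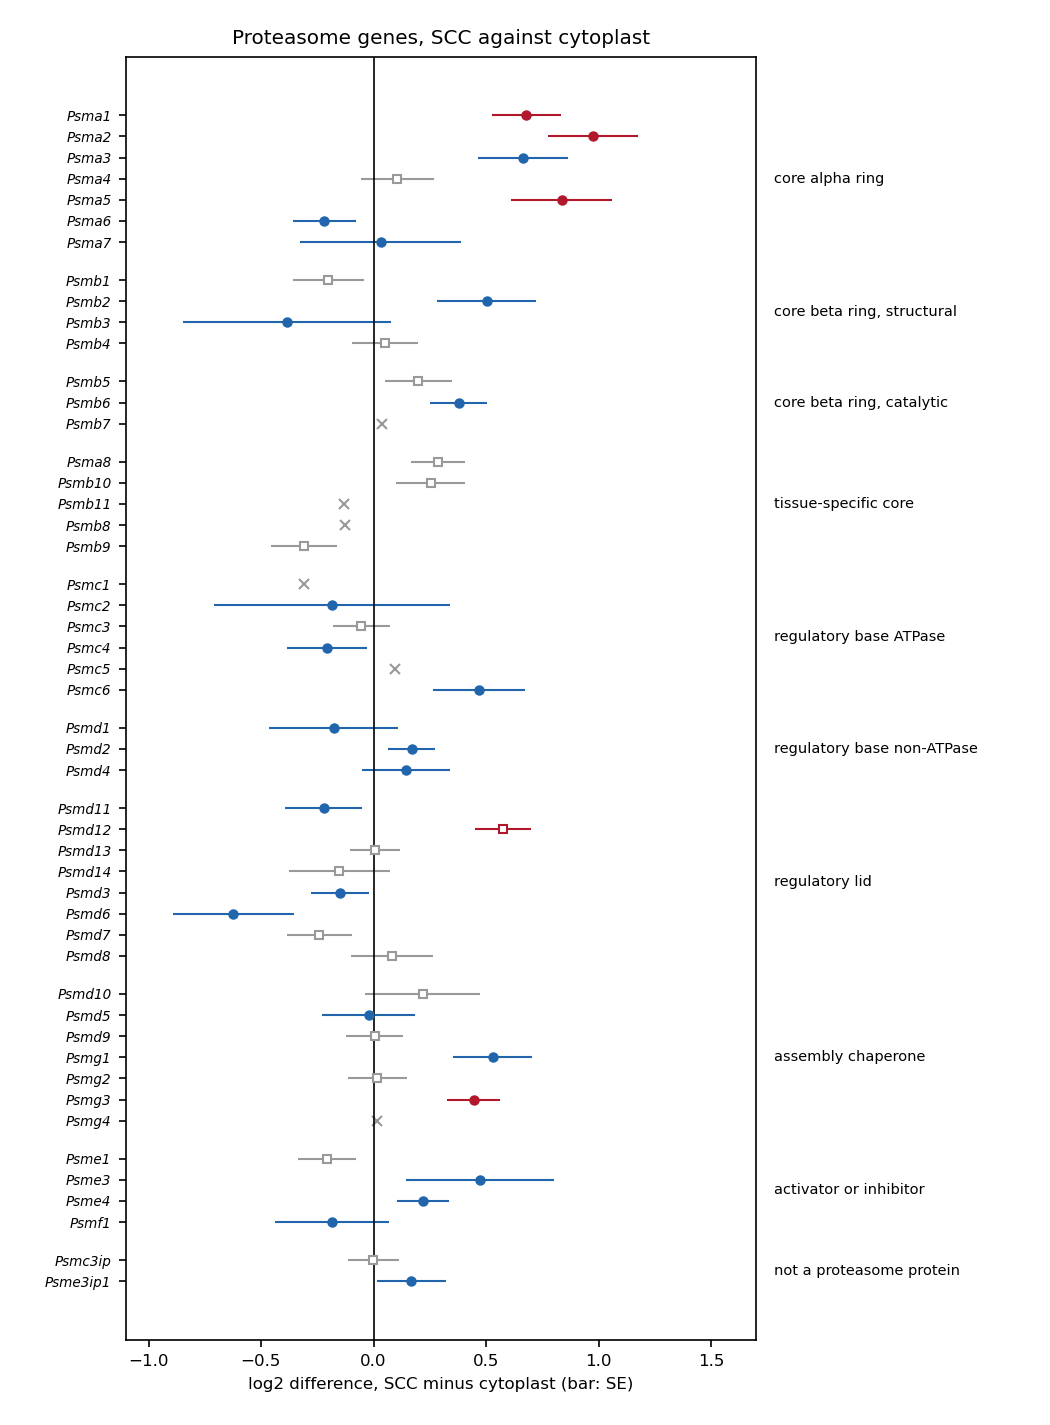
log2 difference between SCC (3 arrays) and cytoplast (4 arrays) for all 49 members, grouped by role, with the standard error as a bar. Red marks the 5 genes with an adjusted p under 0.05, open squares the tested genes above background on no array, and crosses the 6 genes not tested. The alpha ring stands mostly to the right of 0 and the lid mostly to the left, with Psmd12 as its only red symbol.

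The 5 called genes turn the result, so the sequence just upstream of each is given. Each line holds the 120 bases before the RefSeq transcription start on GRCm38.p6, 5′ to 3′ on the gene's strand, with any CCAAT box, the element bound by NF-Y, in capitals.
Psma1, chr7:114276117-114276236, minus strand: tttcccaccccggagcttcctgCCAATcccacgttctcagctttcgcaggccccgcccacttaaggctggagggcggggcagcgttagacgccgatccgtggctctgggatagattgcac
Psma2, chr13:14613122-14613241, plus strand: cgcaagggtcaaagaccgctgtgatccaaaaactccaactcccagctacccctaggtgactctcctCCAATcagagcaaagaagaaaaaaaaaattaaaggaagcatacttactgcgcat
Psma5, chr3:108256806-108256925, plus strand: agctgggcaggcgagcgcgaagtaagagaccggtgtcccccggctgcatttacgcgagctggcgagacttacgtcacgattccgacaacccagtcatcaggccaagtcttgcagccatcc
Psmd12, chr11:107479408-107479527, plus strand: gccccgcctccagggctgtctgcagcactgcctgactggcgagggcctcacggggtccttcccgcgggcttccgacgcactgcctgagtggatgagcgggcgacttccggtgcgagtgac
Psmg3, chr5:139826895-139827014, minus strand: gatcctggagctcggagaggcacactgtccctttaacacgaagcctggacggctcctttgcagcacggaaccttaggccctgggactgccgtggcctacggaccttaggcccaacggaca
The boxes in Psma1 and Psma2 are matches of letters and not measured sites. CCAAT was searched on both strands in the 250 bases before the start. It was present in 16 of the 41 members matched in the RefSeq promoter table (39%), and in 37.5% of 27025 genes.

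The alpha ring held 3 of the 5 called genes. Its 7 genes had a median log2 difference of 0.66 between SCC and cytoplast, and 6 of the 7 were above 0. Among the 3944 bright probe sets as a whole, 802 were called higher and 3055 were above 0, with an upper quartile of 0.55. Psma2 encodes a gate-side ring subunit and had intensities of 2426, 3182 and 3541 on the SCC arrays. The cytoplast arrays gave 1432, 1350, 1431 and 1987, and the MII oocyte arrays 1314, 1984 and 2109. All 3 SCC arrays were above every other array, and among the cytoplast arrays replicate 4 stood above the rest. The means were 3050 ± 569 (SD, n = 3) and 1550 ± 294 (SD, n = 4) for SCC and cytoplast, a log2 difference of 0.98 ± 0.20 (SE; 1.97-fold; limma adjusted p = 0.0164).

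Psma1, another subunit of the ring, measured 699, 976 and 958 in the SCC. In the cytoplast it measured 519, 538, 617 and 502, and in the MII oocyte 560, 762 and 686. SCC and cytoplast did not overlap, while MII oocyte replicate 3 was above SCC replicate 1. The log2 difference between SCC and cytoplast was 0.68 ± 0.15 (SE; 1.6-fold; limma adjusted p = 0.0243).

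Psma5 measured 2388, 2991 and 3304 in the SCC. The cytoplast gave 1601, 1177, 1532 and 2309, and the MII oocyte 1466, 1813 and 2317. The lowest SCC array was only slightly above cytoplast replicate 4 and MII oocyte replicate 4. The log2 difference between SCC and cytoplast was 0.84 ± 0.22 (SE; 1.79-fold; limma adjusted p = 0.045). A second probe set of Psma5 moved the same way, with 657, 879 and 892 in the SCC against 334, 292, 366 and 501 in the cytoplast (log2 difference 1.13, limma adjusted p = 0.012).

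The other alpha genes did not pass. Psma3 measured 253, 267 and 266 in the SCC and 176, 144, 213 and 138 in the cytoplast, without overlap, at a log2 difference of 0.66 ± 0.20 (SE, limma adjusted p = 0.0716). Psma7 showed a log2 difference of 0.032 (limma adjusted p = 0.978) and turned to -0.20 after cyclic loess and -0.30 after quantile normalization. Psma4 was below background on all arrays.

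Psma6 lay on the other side of 0. It measured 710, 792 and 906 in the SCC, 977, 835, 953 and 959 in the cytoplast, and 1276, 929 and 1214 in the MII oocyte. SCC and cytoplast overlapped, and all SCC arrays lay below all MII oocyte arrays. The log2 difference was -0.22 ± 0.14 (SE, limma adjusted p = 0.437) against the cytoplast. It became -0.48 (limma adjusted p = 0.0279) after cyclic loess and -0.53 (limma adjusted p = 0.0259) after quantile normalization, so that Psma6 was called lower there. Its probe set is of a kind that may hybridise to related sequences. Another Psma6 probe set, near background, was on the other side of 0 as deposited, at 0.095 (limma adjusted p = 0.868). A further tested one, below background, was at 0.0013 (limma adjusted p = 0.998).

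**Figure D2:**
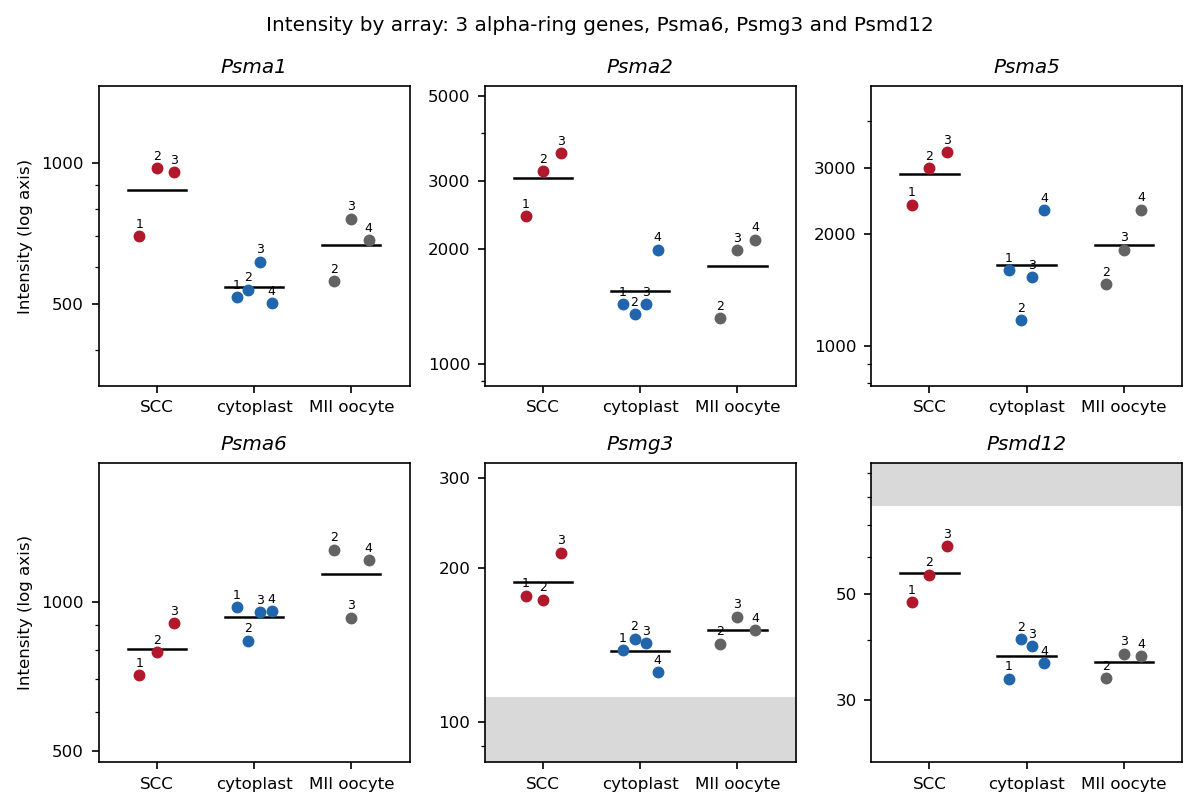
Intensity on each array (points, numbered by replicate) and the group mean (line) for 6 members on log axes. Grey bands span the background level over the arrays, 76.9 to 111.4. The SCC points of Psma1, Psma2, Psma5, Psmg3 and Psmd12 lie above all cytoplast points, those of Psma6 do not, and Psmd12 lies wholly below the band.

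Most of these calls depended on the scaling. As deposited, bright probe sets stood at a median log2 difference of 0.28 between SCC and cytoplast, which cyclic loess brought to 0.016 and quantile normalization to -0.0002. After cyclic loess 1 member was higher (Psmd12) and 1 lower (Psma6), with 503 of all probe sets called higher and 120 lower instead of 1599 and 65. Quantile normalization gave the same pair of genes, with 419 probe sets higher and 153 lower. Psma2 kept log2 differences of 0.69 and 0.69 with limma adjusted p of 0.075 and 0.0796. Psma1 had limma adjusted p of 0.187 and 0.273, Psma5 0.124 and 0.114, and Psmg3 0.241 and 0.304. The median of the alpha ring was 0.43 and 0.36, with 5 of the 7 genes above 0. Whether the shift of bright probe sets is of the samples or of the arrays was not tested.

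**Figure D3:**
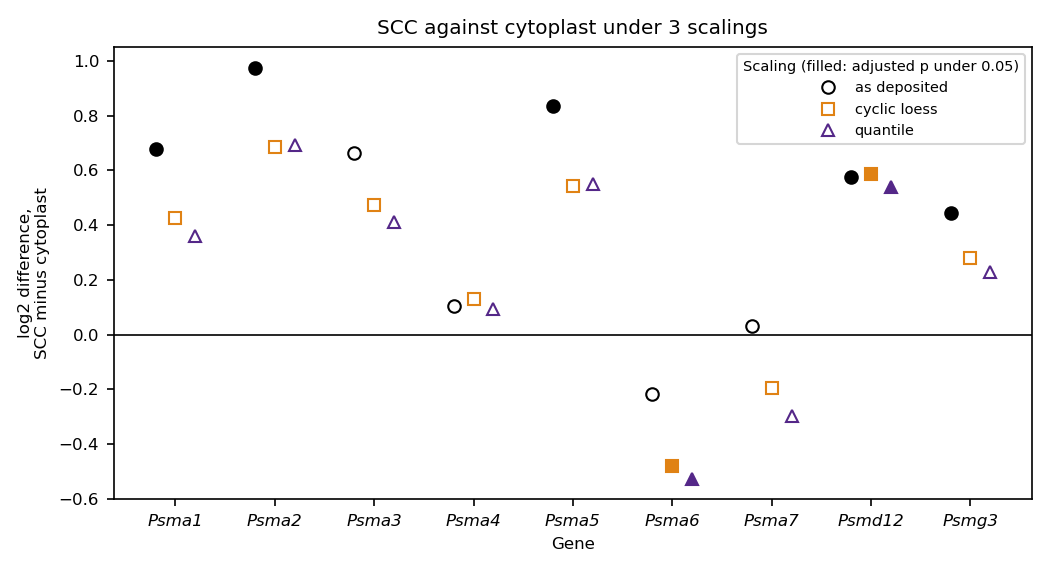
log2 difference between SCC and cytoplast for the 7 alpha-ring genes, Psmd12 and Psmg3 with the arrays as deposited, after cyclic loess and after quantile normalization; filled symbols have an adjusted p under 0.05. The differences of Psma1, Psma2, Psma3 and Psma5 shrink but stay above 0, Psma7 crosses 0 and Psma6 falls further below it.

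Single arrays also decided the count. No member was called higher without cytoplast replicate 1, without SCC replicate 2 or without SCC replicate 3 (0 in each case, limma), and only Psmd12 was called without cytoplast replicate 2. In these fits the share of all probe sets called higher fell too, to 2.44%, 1.14%, 1.02% and 2.86%. The log2 differences stayed near those with all arrays, at 0.94, 0.94, 0.86 and 0.92 for Psma2 and 0.66, 0.59, 0.61 and 0.67 for Psma1. With the arrays split by the level of their hybridisation controls, the log2 difference of Psma2 was 0.98 among the dimmer arrays (2 SCC, 3 cytoplast) and 0.83 among the brighter (1 of each). Psma1 gave 0.57 and 0.93, Psma5 0.91 and 0.52, and Psmg3 0.30 and 0.78. The brighter side holds 1 array of each group, and since no SCC array of these genes overlapped a cytoplast array, the sign could not turn on either side. With the split as a block 6 members were called, the 5 and Psma3. The share of all probe sets called higher rose as well, to 10.6% from 6.74%.

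The inner beta ring gave no call. Psmb6, the caspase-like catalytic subunit, measured 139, 125 and 139 in the SCC, 103, 93.0, 95.4 and 125 in the cytoplast, and 119, 111 and 130 in the MII oocyte. SCC and cytoplast did not overlap, though the lowest SCC array and cytoplast replicate 4 were nearly equal. The log2 difference was 0.38 ± 0.13 (SE, limma adjusted p = 0.104). Psmb5, the chymotrypsin-like subunit, was below background everywhere, at 28.1 to 37.5 in the SCC and 26.4 to 33.6 in the cytoplast. Psmb2 measured 207, 246 and 303 in the SCC and 190, 139, 142 and 255 in the cytoplast (log2 difference 0.50 ± 0.22, limma adjusted p = 0.227). Psmb1 and Psmb4 were below background. The median over all 4 structural beta genes was -0.074, and 0.059 over the 2 above background. The probe sets used for Psmb1 and Psmb3 lay below 0. Another tested probe set of each, below background, lay above 0 (limma adjusted p = 0.0965 and 0.706).

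In the regulatory particle 1 gene was called. The median log2 difference between SCC and cytoplast was -0.12 over the 6 ATPases and 0.13 over the 2 of them above background on all arrays. It was 0.15 over the 3 other base genes, all above background. Over the 8 lid genes it was -0.15, and -0.22 over the 3 above background. Psmc6, an ATPase, measured 307, 457 and 402 in the SCC and 269, 287, 342 and 224 in the cytoplast, with overlap (log2 difference 0.47 ± 0.20, limma adjusted p = 0.222). Psmd2, a base scaffold that receives ubiquitin-like proteins, measured 112, 123 and 128 in the SCC and 104, 109, 111 and 105 in the cytoplast (log2 difference 0.17 ± 0.10, limma adjusted p = 0.416). Its groups did not overlap, but the difference did not pass.

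Psmd12, a scaffold subunit of the lid, was the only regulatory gene called. It measured 48.1, 55.0 and 63.1 in the SCC, 33.3, 40.2, 38.9 and 35.8 in the cytoplast and 33.3, 37.5 and 37.1 in the MII oocyte. Every SCC array was above every other array. All 10 values were below the background level, so the size of the difference is not given. The test against the cytoplast passed (limma adjusted p = 0.0202), and rests on signals under that level, which lies near the top of the genes of other tissues. In the SCC, Psmd12 averaged 55.4, below Vil1 (257), Mbp (125) and Ins2 (106) and above the rest of those genes. In the cytoplast it averaged 37.0, and there Pde6b (62.3) and Ckm (58.0) were brighter as well.

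Psmd6, another lid scaffold, measured 172, 147 and 146 in the SCC and 302, 281, 276 and 138 in the cytoplast. The MII oocyte arrays gave 393, 221 and 248. All SCC arrays were below the MII oocyte arrays and below 3 of the 4 cytoplast arrays, and cytoplast replicate 4 was lower still. The log2 difference from the cytoplast was -0.62 ± 0.27 (SE, limma adjusted p = 0.216). A second, dimmer probe set did not pass either (limma adjusted p = 0.185). Without cytoplast replicate 4 Psmd6 was called lower. In that fit 104 of all probe sets were called lower, against 65 with all arrays. Psmd3 measured 126, 128 and 125 in the SCC against 149, 131, 133 and 149 in the cytoplast (log2 difference -0.15, limma adjusted p = 0.589). Psmd11 was at a log2 difference of -0.22 (limma adjusted p = 0.535), which is also the median of the 3 lid genes above background. Other Psmd11 probe sets above background on all arrays gave 0.71 (limma adjusted p = 0.429) and -0.034 (limma adjusted p = 0.938).

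On each array, the median deviation of the 6 alpha-ring genes above background from their own means was 0.22, 0.48 and 0.47 in the SCC and -0.25, -0.39, -0.044 and -0.19 in the cytoplast. For the 8 regulatory-particle genes above background it was -0.076, -0.077 and -0.054 in the SCC and 0.097, -0.060, 0.021 and -0.073 in the cytoplast. The alpha-ring values were apart between SCC and cytoplast and the regulatory values overlapped. The 6 alpha-ring genes include Psma1, Psma2, Psma3 and Psma5, each already without overlap between SCC and cytoplast. The gap in their median follows largely from those values and is no separate support. The difference between both gene groups was not tested.

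**Figure D4:**
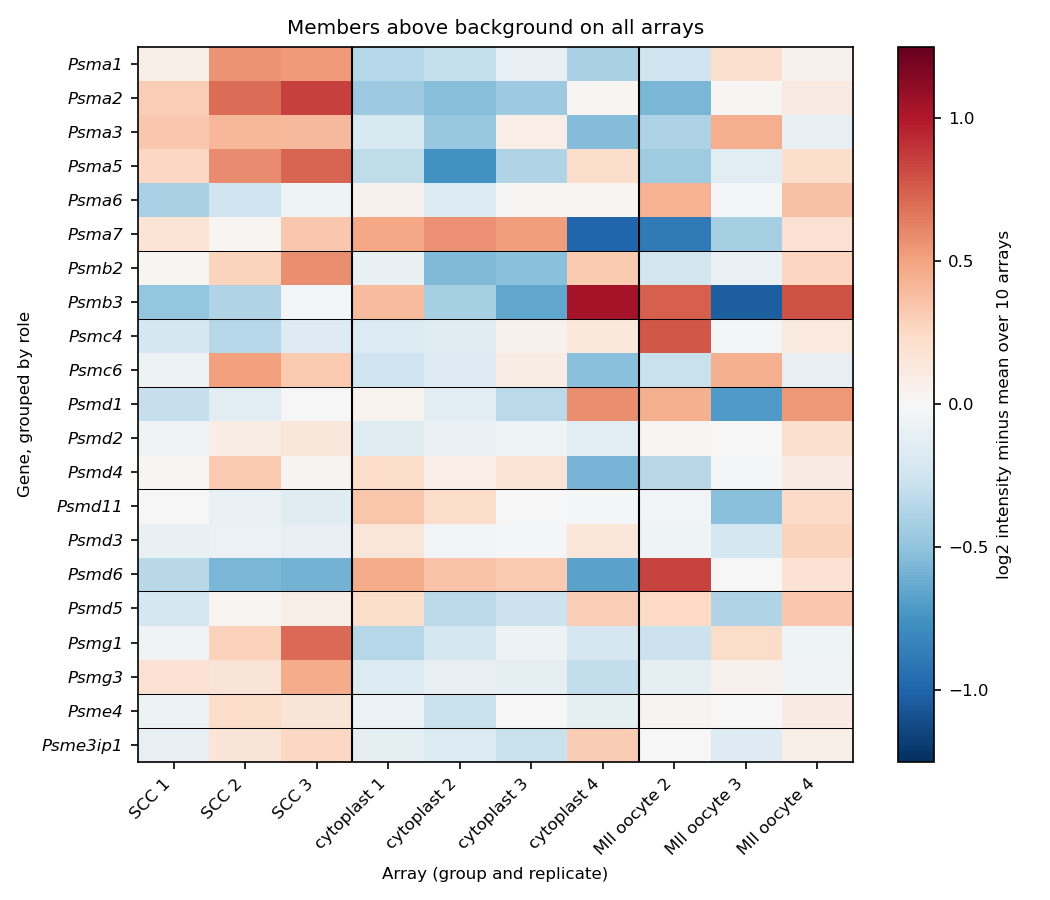
Deviation of log2 intensity from the gene's mean over the 10 arrays for the 21 members above background on all arrays, with vertical lines between the groups of arrays and horizontal lines between roles. Psma1, Psma2, Psma3 and Psma5 are red in the SCC columns and Psmd6 is blue there, while Psmb3, Psmd1 and Psma7 vary within the groups.

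Among the assembly factors, Psmg3 was called. It encodes a chaperone that helps to build the alpha ring, and it measured 177, 174 and 215 in the SCC, 138, 146, 143 and 125 in the cytoplast and 143, 161 and 151 in the MII oocyte. The SCC arrays were above all others. The log2 difference from the cytoplast was 0.45 ± 0.12 (SE; 1.36-fold; limma adjusted p = 0.0418), close to the threshold. Psmg1, part of an earlier alpha-ring chaperone pair, measured 771, 974 and 1298 in the SCC and 623, 682, 762 and 687 in the cytoplast (log2 difference 0.53 ± 0.18, limma adjusted p = 0.103). Psmg2, its partner, and Psmg4, the partner of Psmg3, were below background. Of the base chaperones, Psmd5 had a log2 difference of -0.020 (limma adjusted p = 0.976), and Psmd9 and Psmd10 were below background.

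No activator or inhibitor was called. Psme4, the large activator that caps the core and is known for roles in germ cells, measured 4158, 5079 and 4846 in the SCC. The cytoplast arrays gave 4123, 3577, 4368 and 4027, and the MII oocyte arrays 4432, 4322 and 4669. The groups overlapped, at a log2 difference of 0.22 ± 0.12 between SCC and cytoplast (SE, limma adjusted p = 0.323), and its sign turned after either rescaling. Of its other probe sets above background on all arrays, one gave 0.35 without overlap of SCC and cytoplast (limma adjusted p = 0.156). The other gave 0.12 with overlap (limma adjusted p = 0.749). Psme3, the nuclear activator, gave 0.47 ± 0.33 (SE, limma adjusted p = 0.485). Psme1 was below background. Neither of the other proteins with a matching name passed: Psme3ip1 had a log2 difference of 0.17 (limma adjusted p = 0.622) and Psmc3ip was below background.

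Some members varied more within a group than between groups. Psmb3, a structural beta gene, measured 2321, 2496 and 3210 in the SCC, 4268, 2441, 2066 and 6661 in the cytoplast and 5458, 1594 and 5658 in the MII oocyte. Its log2 difference between SCC and cytoplast was -0.39 ± 0.46 (SE, limma adjusted p = 0.723). The 5 arrays with the brightest hybridisation controls, cytoplast replicates 1 and 4, MII oocyte replicates 2 and 4 and SCC replicate 3, held the 5 highest values of Psmb3, and likewise of the base scaffold Psmd1 and the chaperone Psmd5. This was so for 3 members and for 5.25% of all probe sets tested, and its part in the values was not tested. Psma7 and Psmc2 showed a different split, with their lowest values on cytoplast replicate 4 (173 and 53.6) and MII oocyte replicate 2 (186 and 62.3).

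**Figure D5:**
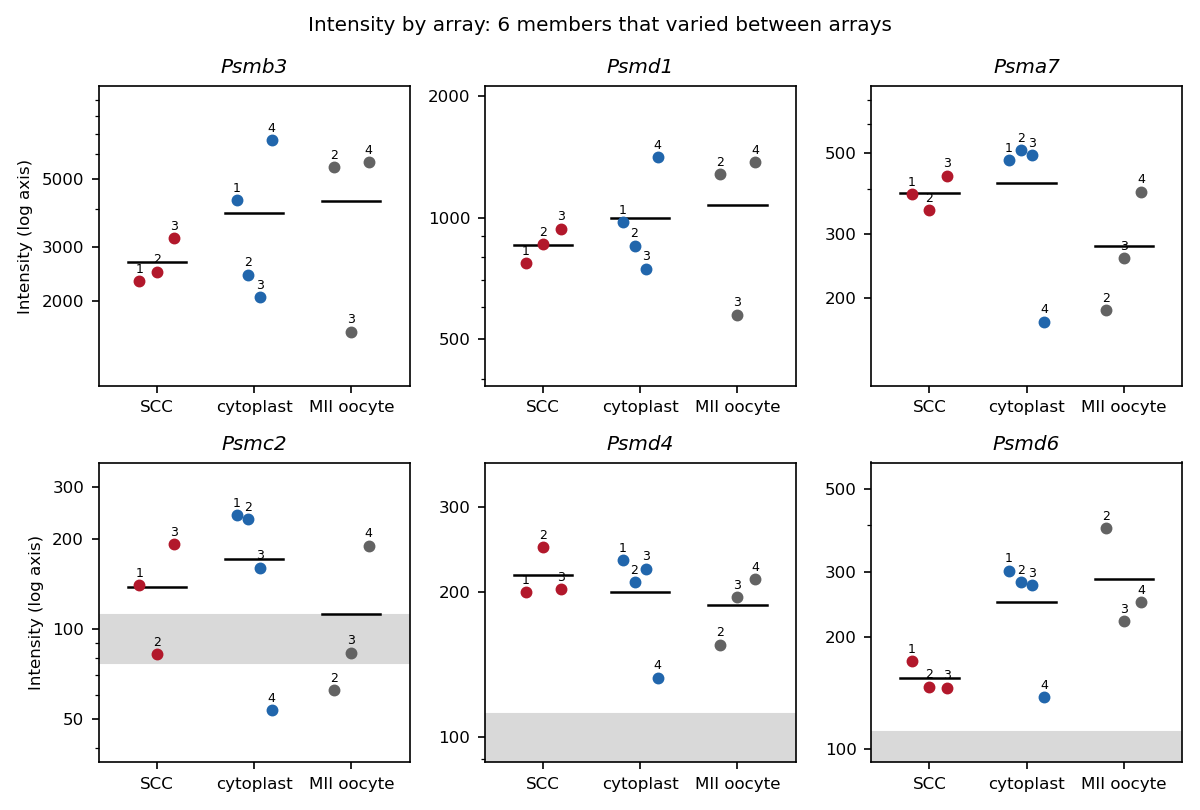
Intensity on each array (points, numbered by replicate) and the group mean (line), on log axes, for 6 members with wide spread within a group. Cytoplast replicate 4 is the highest of its group for Psmb3 and Psmd1 and the lowest for Psma7, Psmc2, Psmd4 and Psmd6; grey bands are the background level.

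Against the intact MII oocyte, which contains both parts, 0 members passed in either direction (limma). The background was 0.0421% of all probe sets higher in SCC and 0% lower. At an unadjusted p under 0.05, 5 members were higher (Psma1, Psma2, Psma5, Psmd12 and Psmg3) and 3 lower (Psma6, Psmc4 and Psmd6), beside 8.59% and 3.51% of all probe sets. The members with the smallest p were Psmd12 (limma adjusted p = 0.109), Psma2 (log2 difference 0.77, limma adjusted p = 0.177), Psma6 (-0.50, limma adjusted p = 0.194), Psmd6 (-0.85, limma adjusted p = 0.251) and Psmc4 (-0.54, limma adjusted p = 0.271). The ATPase Psmc4 measured 298, 268 and 308 in the SCC and 589, 339 and 375 in the MII oocyte. Its groups did not overlap, with MII oocyte replicate 2 far above the others. The same SCC arrays enter both comparisons, so they are not independent of each other. Without MII oocyte replicate 3, Psmd12 was called higher and Psma6 lower. In that fit the calls over all probe sets rose too, from 10 higher and 0 lower to 444 and 253.

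The cytoplast and the MII oocyte gave 0 called members in either direction (limma), as over all probe sets (0% each). The cytoplast had lost the SCC and had also been through the microsurgery, which the intact oocyte had not. At an unadjusted p under 0.05, 0 members were higher and 1, the testis subunit Psma8, was lower, beside 1.16% and 3.28% of all probe sets. Psma8 measured 12.8, 12.9, 14.1 and 11.1 in the cytoplast and 14.8, 17.6 and 17.1 in the MII oocyte, all below background. The lowest adjusted p of any member was 0.926 (limma), and the other members with the smallest p were Psmb4, Psma6, Psmd8 and Psma1. Psmb4 and Psmd8, a lid gene, were below background. The log2 differences of Psma6 and Psma1 were -0.28 and -0.29. The median over the 49 members was -0.083, beside -0.034 over all genes.

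Other genes of the ubiquitin-proteasome route were read from a list of proteasome-associated proteins, factors that control transcription of subunit genes, shuttle proteins and ubiquitin genes, of which 24 had a probe set of their own. Between SCC and cytoplast 1 of the 24 was higher and 0 lower, beside 6.74% and 0.274% of all probe sets. The median log2 difference was 0.18, and 19 genes were above 0 and 5 below; among bright probe sets as a whole the median was 0.28 and 3055 of 3944 were above 0. Of the 24, 16 were above background on all arrays. The gene called was Uba6, an enzyme that activates ubiquitin and the ubiquitin-like protein FAT10. It measured 226, 346 and 328 in the SCC, 130, 116, 129 and 150 in the cytoplast and 98.1, 229 and 196 in the MII oocyte. SCC and cytoplast were apart, while the MII oocyte arrays spread over both. The log2 difference was 1.17 ± 0.26 (SE; 2.26-fold; limma adjusted p = 0.0213), with 0.99 (limma adjusted p = 0.0662) after cyclic loess and 0.25 (limma adjusted p = 0.222) as the mean of its probe sets. The next smallest p were those of Ngly1, which removes sugars from proteins and activates the transcription factor of proteasome genes (0.79, limma adjusted p = 0.052), and Sem1, a small lid protein (0.66, limma adjusted p = 0.0922).

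That factor, Nfe2l1, is known to drive subunit genes through antioxidant response elements. The core letters TGACNNNGC were searched on both strands in the 250 bases before each start. They were found in 5 of the 41 matched members (12.2%) and in 11.5% of all genes. The stretches around the matches are shown to set them beside the called genes, with the match in capitals, on the gene's strand of GRCm38.p6 from RefSeq.
Psmb5, chr14:54618022-54618054, minus strand: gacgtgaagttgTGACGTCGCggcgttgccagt
Psmb6, chr11:70525336-70525356, plus strand: gactaaagagagTGACGGAGC
Psmc6, chr14:45329585-45329617, plus strand: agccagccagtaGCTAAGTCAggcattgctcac
Psmd12, chr11:107479278-107479301, plus strand: tctGCTGTGTCAcatttgcccccc
Psmd9, chr5:123228147-123228179, plus strand: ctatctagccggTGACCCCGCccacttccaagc
Of these only Psmd12 was among the called genes. Psmb6 and Psmc6 had log2 differences of 0.38 and 0.47 between SCC and cytoplast that did not pass. Psmb5 and Psmd9 were below background.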

How the data were processed

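Transcript levels in 10 samples were read from 1-colour Affymetrix arrays. The deposited values are linear intensity values for 45101 probe sets; RMA is named in the submitters' processing notes, with its version and settings not given in the sources used here. Log2 was taken first. Of these, 64 are controls, 34945 carry 1 gene symbol, 932 several and 9160 none. Probe sets above the array median on at least 3 arrays were kept (23737). limma 3.58.1 in R 4.3.3 (lmFit, eBayes) fitted 1 mean per group over all 10 arrays, with Benjamini-Hochberg adjustment and a threshold of 0.05, and was tested on simulated data. Array numbers limit the precision.

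The members and gene lists were chosen with earlier results of these data known. Per-array values were given for called members, the 5 with the smallest p in each comparison, tissue-specific and catalytic core genes, and the leading assembly and activator genes; others were added after their values were seen. Alternatives were other scalings, filters, probe set rules, designs, weights, covariates and omitted arrays. The split by hybridisation controls, at the largest gap in their mean level, was chosen after seeing the data.

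The labels do not say that same-numbered arrays are paired, so the main fit did not pair them. Their residuals had a mean correlation of 0.0215 in 8 pairs (lowest -0.304, highest 0.614, 2 over 0.1). The 2 were cytoplast with MII oocyte, at replicate 3 (0.614) and replicate 4 (0.307). These values do not settle whether the arrays are paired. No more than 0.479% of values were identical between any pair of arrays. Promoter sequences came from the RefSeq table on GRCm38.p6, in which 8 members had no match.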

Additional observations from a re-analysis of the deposited data

Results flagged for a closer look

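In the cytoplast group of 4 arrays, 1 array stood apart from the other 3 for 4 of the 23 named members examined, judged by Dixon's test on the gap to the nearest array as a share of the group's log2 range. The shares were 0.848 for Psma2, where replicate 4 was high, 0.841 for Psma6, where replicate 2 was low, and 0.883 for Psmd6 and 0.867 for Psmd8, where replicate 4 was low. Chance gives such a gap in about 1 in 20 groups. Psmd8 lay below background, at 50.3, 49.1, 51.5 and 35.9.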

How the results depend on the processing

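The count of members higher in SCC than cytoplast (5) was 1 after cyclic loess, 1 after quantile normalization, 3 with eBayes trend and robust settings and 8 with array weights. Leaving out 1 array gave 0 to 6. The share of all probe sets called higher (6.74%) was 2.12%, 1.77%, 5.48% and 12.8% in these 4 fits. It was 7.73% with the replicate block and 1.02% to 8.61% with 1 array left out. The count lower (0) was 1 after cyclic loess and 1 after quantile normalization (Psma6), and 1 with array weights and 1 with the replicate block (Psmd6 in both). Leaving out 1 array gave 0 to 1. Over all probe sets the number lower (65) was 120, 153, 482 and 110 in these fits, and 1 to 191 with 1 array left out. With the replicate block 5 members were higher, Psmg1 replacing Psmg3, and same-numbered arrays are not known to be paired. Against the MII oocyte, array weights gave 1 member higher (Psmd12) and 1 lower (Psma6), and leaving out 1 array gave 0 to 1 in each direction. Over all probe sets array weights gave 391 higher and 85 lower there, and leaving out 1 array gave up to 444 and 253. The cytoplast and MII oocyte gave 0 under every alternative run (limma). The member median between them (-0.083) was 0.017 after cyclic loess and -0.083 to -0.0004 with 1 array left out. With the array median as background, 37 members were above it on all arrays instead of 21. The cause was not tested. Over 21 alternatives Psmd12 stayed called in 18, Psma1 and Psma2 in 15 each, Psma5 in 12 and Psmg3 in 8. For the single genes named, no alternative reversed a called direction. Psmd12 is below background on every array, so its calls rest on signals under that level, and the few arrays limit all calls.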
